A study of Mus musculus with 12 samples.

Results

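MS4A genes encode small proteins that cross the membrane 4 times and sit mostly on blood and immune cells. Here 7 MS4A genes of mouse myeloid cells, Ms4a4a, Ms4a4c, Ms4a6b, Ms4a6c, Ms4a6d, Ms4a7 and Ms4a8a, were followed in cultured dendritic cells. They were matched by symbol to their Ensembl identifiers, and all 7 were found among the 31054 genes of the count tables. All 7 were also among the 13141 genes with enough counts to be tested. The genes were picked with these counts already known. Their levels, fitted changes and calls are therefore given as a description, without p-values, and nothing is supported with them.

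Dendritic cells grown from bone marrow of wild-type C57BL6 mice were compared in 4 groups of 3 RNA-seq libraries, all collected on day 7 after enrichment of live CD11c+ cells. TolDC+LPS were tolerogenic dendritic cells, generated with vitamin D3 and interleukin-10 (IL-10), and stimulated with lipopolysaccharide (LPS), a bacterial cell wall component. TolDC had vitamin D3 and IL-10 without LPS. BMDC+LPS were ordinary bone marrow-derived dendritic cells with LPS, and BMDC were the same cells with neither LPS nor the tolerogenic agents. The doses, the length of the LPS stimulation and the growth factors of the culture were not stated in the sources used here. Nothing in the labels says that the libraries of a group came from separate mice or cultures, so p-values measure the spread between these libraries, which may be technical.

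The best known relatives of these genes are CD20 of B cells (Ms4a1) and the beta chain of the high-affinity IgE receptor of mast cells (Ms4a2). MS4A proteins have no enzyme activity of their own and are known to associate with other receptors and tune their signals. In macrophages, Ms4a4a marks alternatively activated cells, and in humans the MS4A gene cluster is linked to the level of soluble TREM2. Mouse Ms4a6d is known for association with Vsig4 and for restraint of the NLRP3 inflammasome through Jak2, Stat3 and Tnfaip3 (A20).

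All 7 genes lie in the MS4A cluster on chromosome 19 (GRCm38, GENCODE M21 annotation), within 537 kilobases. From low to high coordinates, Ms4a8a spans chr19:11067471-11081102, Ms4a7 chr19:11321039-11336146, Ms4a4a chr19:11375523-11392790 and Ms4a4c chr19:11404770-11427246. They are followed by Ms4a6c at chr19:11469366-11482192, Ms4a6b at chr19:11516512-11531256 and Ms4a6d at chr19:11586604-11604849. Ms4a8a, Ms4a7 and Ms4a6d are on the minus strand and the other 4 on the plus strand. All are protein-coding, and the values are counts over their exons.

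RefSeq promoter windows (GRCm38.p6) were matched for 6 of the 7 members. The 4 below belong to Ms4a7 and Ms4a8a, which have the largest fitted rise and the largest fitted drop of TolDC over BMDC among the members, and to the close paralogs Ms4a6c and Ms4a6b, both high in BMDC+LPS. Each reads 5′ to 3′ on the strand of the gene, and capitals mark matches to GAAANNGAA, a core of the interferon-stimulated response element, on either strand. They cover chr19:11336147-11336396 (Ms4a7, minus strand), chr19:11081104-11081353 (Ms4a8a, minus), chr19:11469118-11469365 (Ms4a6c, plus) and chr19:11518309-11518452 (Ms4a6b, plus). The Ms4a6b stretch stops 106 bases before the RefSeq start, because the bases after it lie in an annotated exon.
Ms4a7: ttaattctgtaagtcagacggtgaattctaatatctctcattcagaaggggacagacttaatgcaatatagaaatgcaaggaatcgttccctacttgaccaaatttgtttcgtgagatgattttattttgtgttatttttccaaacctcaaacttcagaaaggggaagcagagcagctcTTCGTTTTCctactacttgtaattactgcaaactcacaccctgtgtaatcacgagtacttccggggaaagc
Ms4a8a: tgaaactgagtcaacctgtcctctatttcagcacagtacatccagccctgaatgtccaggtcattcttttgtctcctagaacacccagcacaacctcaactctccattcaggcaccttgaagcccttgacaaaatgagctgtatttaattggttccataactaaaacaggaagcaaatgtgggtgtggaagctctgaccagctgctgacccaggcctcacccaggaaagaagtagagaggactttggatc
Ms4a6c: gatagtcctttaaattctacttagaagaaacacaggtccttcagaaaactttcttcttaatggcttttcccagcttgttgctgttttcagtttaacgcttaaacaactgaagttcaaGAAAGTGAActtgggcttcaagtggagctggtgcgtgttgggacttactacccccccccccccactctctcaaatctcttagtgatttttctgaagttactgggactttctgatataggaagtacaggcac
Ms4a6b: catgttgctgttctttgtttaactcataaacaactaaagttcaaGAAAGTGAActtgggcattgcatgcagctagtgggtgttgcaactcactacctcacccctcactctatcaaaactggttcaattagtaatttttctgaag

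The letters GAAANNGAA occurred in the windows of Ms4a7, Ms4a6c and Ms4a6b, and in 8.56% of all 32851 windows of 300 bases (250 before and 50 after each start). The match was at bases -133 to -125 from the start in Ms4a6c and at -206 to -198 in Ms4a6b, both on the plus strand. It sits inside a run of 24 bases that is identical in these promoters. In Ms4a7 the match is on the opposite strand, at -71 to -63. A further Ms4a7 window in the table, for another start of the gene, also has a match. No match was found in the windows of Ms4a8a, Ms4a4a and Ms4a4c. The PU.1 core GAGGAA, searched on both strands and present in 28.3% of all windows, was found at -61 to -56 from the start of Ms4a4c and at 43 to 48, past the start, in Ms4a7. The gamma-activated site TTCNNNGAA (8.30% of all windows) and the vitamin D receptor direct repeat (0.256%) had no match in any window of the 6 members. These matches describe letters only and say nothing about which factors bind.

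The libraries held 21844405 to 41764975 reads assigned to genes. Levels are in CPM, counts scaled to the assigned reads of each library, with library sizes adjusted by TMM. A count of 3 in a library, taken as the floor of detection, corresponded to 0.0743 to 0.138 CPM. All 10 dendritic cell markers had counts in every group, and Itgax, which encodes CD11c, averaged 1378, 2091, 1357 and 2077 CPM in TolDC+LPS, TolDC, BMDC+LPS and BMDC. The others were not all level. Their log2 changes in TolDC over BMDC were -1.73 for Flt3, -0.93 for Zbtb46, -1.31 for Batf3 and -1.84 for Ccr7. They were 0.41 for Irf4, 1.23 for H2-Aa, 1.30 for H2-Ab1, 1.05 for H2-Eb1 and -0.0084 for Cd74. Flt3 averaged 0.106 CPM in TolDC+LPS, near the floor. Summed markers of monocytes and macrophages were 2662 to 3324 CPM in TolDC+LPS, 2478 to 2523 CPM in TolDC, 2079 to 2735 CPM in BMDC+LPS and 6158 to 6320 CPM in BMDC, with all 13 genes detected. B cell markers summed to at most 4.01 CPM in any library.

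The libraries numbered 1 stood apart from the other libraries in each group. In BMDC, for example, the 10 granulocyte markers summed to 645 CPM in replicate 1, against 2567 and 2498 CPM in replicates 2 and 3. Mast cell and basophil markers were likewise lowest in the library numbered 1 of every group, at 25.2 to 48.6 CPM, against 103 to 236 CPM in the others. Among the members, Ms4a4c and Ms4a6c were lowest in replicate 1 in all 4 groups and Ms4a6b in 3 of 4. Values without these libraries are given where a call on an MS4A family gene changed without them. In bulk samples such as these, fewer cells of a type and less RNA per cell cannot be told apart.

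**Figure D1:**
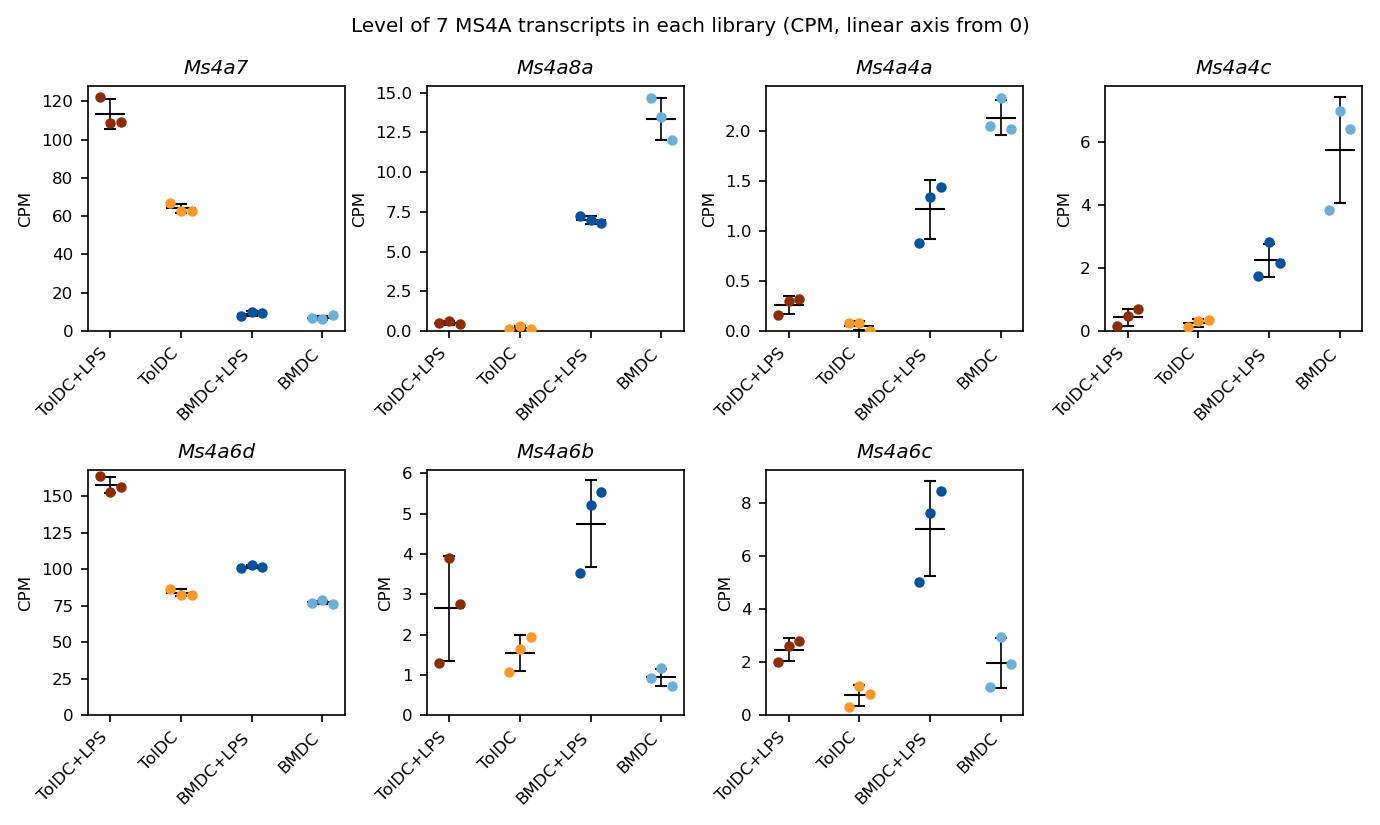
Level of each MS4A transcript in CPM (vertical axis, linear from 0) by group (horizontal axis). Points are the 3 libraries of a group in replicate order, and bars give the mean and SD. Ms4a7 is high in both TolDC groups, Ms4a8a, Ms4a4a and Ms4a4c are high in both BMDC groups, and Ms4a6d is abundant in all 4.

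Between TolDC and BMDC, the transcripts split in opposite directions. Ms4a7 was 9.20-fold higher in TolDC, while Ms4a8a, Ms4a4a and Ms4a4c were lower by fitted folds of 68.1, 38.4 and 21. Ms4a6d, the most abundant per length, was nearly level. In edgeR's quasi-likelihood test with Benjamini-Hochberg adjustment over all genes, called at an adjusted p below 0.05, 2 of 7 members were called higher and 4 lower. The calls covered 62.4% of all tested genes, 32.0% higher and 30.4% lower. The median log2 change of the members was -1.42, beside 0.01 over all tested genes. The libraries of TolDC and BMDC did not overlap for 5 of 7 members, and for 66.9% of all tested genes.

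Ms4a7 is known as a transcript of monocytes, tissue macrophages and microglia. It stood at 122, 109 and 109 CPM in the TolDC+LPS libraries and 66.9, 62.7 and 62.5 CPM in TolDC. The BMDC+LPS libraries had 7.85, 10.0 and 9.53 CPM, and the BMDC libraries 6.74, 6.16 and 8.18 CPM. Every TolDC library, with or without LPS, was above every BMDC library. The log2 change was 3.20 ± 0.091 (SE) in TolDC over BMDC and 3.64 ± 0.087 in TolDC+LPS over BMDC+LPS, which is 12.5-fold. Of the 13 monocyte and macrophage markers, 9 had lower means in TolDC than in BMDC, most of all by CPM Lyz2, at 1542 CPM in TolDC and 4280 CPM in BMDC, and Ccr2, at 49.0 and 1050 CPM. Adgre1 was higher, at 125 CPM in TolDC and 37.3 CPM in BMDC, and so were the means of Csf1r, Cd68 and Cd14. The part of these markers in the Ms4a7 values was not tested.

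Ms4a8a, known in mouse from macrophages activated by interleukin-4 together with glucocorticoid, had the reverse pattern. It was at 0.490, 0.639 and 0.421 CPM in TolDC+LPS and 0.119, 0.327 and 0.141 CPM in TolDC. In BMDC+LPS it reached 7.25, 6.96 and 6.79 CPM, and in BMDC 14.6, 13.5 and 12 CPM. The 4 groups did not overlap at any step of the order BMDC, BMDC+LPS, TolDC+LPS and TolDC. The TolDC libraries summed to 15 counts and the BMDC libraries to 1109, so the level in TolDC was 0.0143 of that in BMDC (95% exact interval 0.00796 to 0.0237, which covers counting error only). With LPS the fitted log2 change of TolDC+LPS over BMDC+LPS was -3.77 ± 0.17. By fitted change, Ms4a8a stood in place 11 among all genes lower in TolDC than in BMDC.

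Ms4a4a, the surface marker of alternatively activated macrophages, was near the floor in TolDC, with 2, 2 and 0 counts in the libraries. Its levels were 0.163, 0.303 and 0.322 CPM in TolDC+LPS, 0.0793, 0.0816 and 0 CPM in TolDC, 0.880, 1.34 and 1.44 CPM in BMDC+LPS, and 2.05, 2.33 and 2.02 CPM in BMDC. Neighbours in the order BMDC, BMDC+LPS, TolDC+LPS and TolDC did not overlap, although the last step rests on 27 counts against 4. The level in TolDC was 0.0239 of that in BMDC (95% exact interval 0.00643 to 0.0622), from 4 and 177 counts. TolDC+LPS had 0.226 of the level in BMDC+LPS (0.141 to 0.351).

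Ms4a4c, a gene of blood cells whose paralog Ms4a4b is better known in T cells, followed Ms4a4a. It was at 0.163, 0.471 and 0.694 CPM in TolDC+LPS, 0.119, 0.327 and 0.352 CPM in TolDC, 1.76, 2.81 and 2.16 CPM in BMDC+LPS, and 3.85, 6.97 and 6.41 CPM in BMDC. The TolDC groups overlapped each other and lay below all BMDC libraries. The log2 change was -4.39 ± 0.41 in TolDC over BMDC and -2.25 ± 0.40 in TolDC+LPS over BMDC+LPS. Replicate 1 was the lowest library in every group, and without the libraries numbered 1 these changes were -4.29 and -2.04.

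Ms4a6d, the inflammasome-restraining member, had 163, 153 and 156 CPM in TolDC+LPS and 86.7, 82.2 and 82.4 CPM in TolDC. The BMDC+LPS libraries had 101, 103 and 101 CPM and the BMDC libraries 77.1, 78.6 and 76.4 CPM. The groups did not overlap in the order TolDC+LPS, BMDC+LPS, TolDC and BMDC, but TolDC exceeded BMDC by only 1.08-fold. That log2 change of 0.11 ± 0.038 lost its call without BMDC replicate 3 (0.08) or TolDC replicate 1 (0.09), and with DESeq2 (0.09). With LPS the change of TolDC+LPS over BMDC+LPS was larger, 0.63 ± 0.037.

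Ms4a6c, a transcript of monocytes and macrophages in mouse, was at 1.99, 2.62 and 2.80 CPM in TolDC+LPS, 0.317, 1.10 and 0.810 CPM in TolDC, 5.03, 7.65 and 8.45 CPM in BMDC+LPS, and 1.06, 2.95 and 1.94 CPM in BMDC. BMDC+LPS stood above all other groups, while BMDC overlapped both TolDC+LPS and TolDC. The log2 change was -1.42 ± 0.48 in TolDC over BMDC and -1.49 ± 0.33 with LPS. The first lost its call without BMDC replicate 2 (-0.98), TolDC replicate 1 (-1.07) or TolDC replicate 3 (-1.50). It also lost it without the filter on low counts (-1.43).

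Ms4a6b, known in mouse T cells as a modulator of activation, was the only member whose fitted change between TolDC and BMDC differed in sign with and without LPS. It had 1.31, 3.90 and 2.75 CPM in TolDC+LPS, 1.07, 1.63 and 1.94 CPM in TolDC, 3.52, 5.21 and 5.53 CPM in BMDC+LPS, and 0.917, 1.17 and 0.732 CPM in BMDC. Each neighbouring pair in the order BMDC+LPS, TolDC+LPS, TolDC and BMDC overlapped. The log2 change of TolDC over BMDC was 0.70 ± 0.44 and not called, but it was called with the replicate number as a block (0.70) and without the libraries numbered 1 (0.87). It was also called in a fit of the compared groups alone (0.71). With LPS it was -0.83 ± 0.32, a call that was lost without TolDC+LPS replicate 1 or 3, TolDC replicate 2, BMDC+LPS replicate 2 or 3 or any BMDC library, where the change was between -0.86 and -0.53. That call was also lost without the filter on low counts (-0.80) and in the fit of the compared groups alone (-0.84).

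With LPS in both, 2 of 7 members were called higher in TolDC+LPS than in BMDC+LPS, Ms4a7 and Ms4a6d, and 5 lower. The calls covered 67.9% of all tested genes, 34.3% higher and 33.7% lower. The members' median log2 change was -1.49, beside 0.02 over all tested genes. The libraries did not overlap for 6 of 7 members, against 71.4% of all tested genes.

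**Figure D2:**
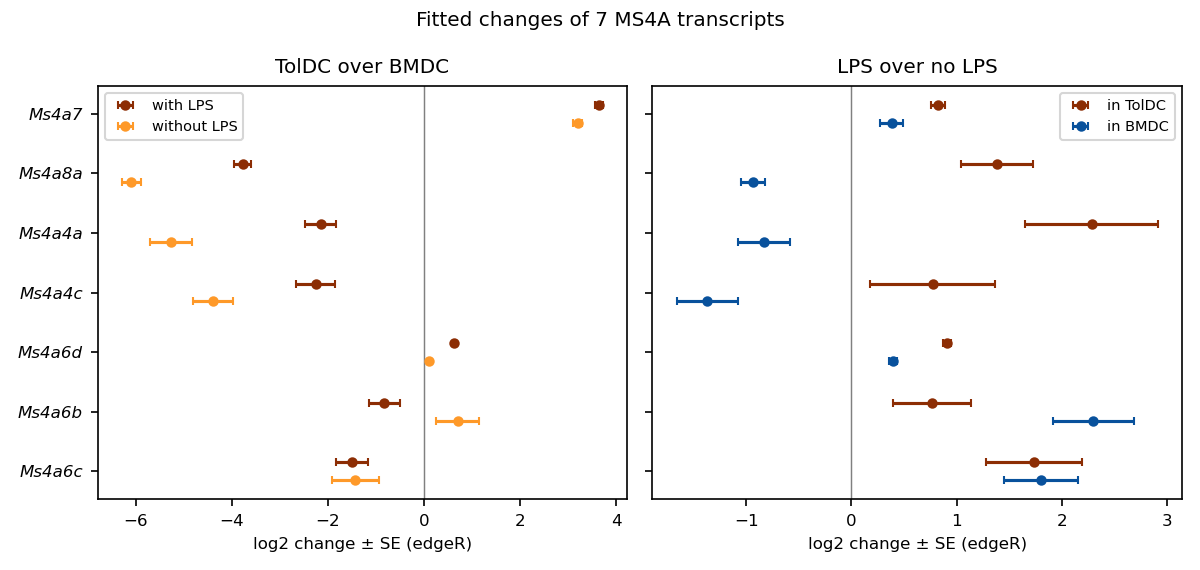
Fitted log2 changes with SE (horizontal axes) of the 7 members (vertical axis), for TolDC over BMDC with and without LPS on the left and for LPS over no LPS in each cell type on the right. Ms4a8a, Ms4a4a and Ms4a4c lie below 0 on the left in both cases, and on the right they lie above 0 in TolDC and below 0 in BMDC. Ms4a4c was not called in TolDC.

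LPS was followed by higher levels of 5 of 7 members in TolDC and by mixed changes in BMDC. In TolDC+LPS over TolDC, Ms4a4a, Ms4a6c, Ms4a6d, Ms4a7 and Ms4a8a were called higher, Ms4a4c and Ms4a6b were not called, and none was called lower. Ms4a4a entered this comparison through the filter over all 4 groups. It did not pass the filter in a fit of TolDC+LPS and TolDC alone. The calls covered 71.3% of all tested genes, 35.4% higher and 35.9% lower. In BMDC+LPS over BMDC, Ms4a6b, Ms4a6c, Ms4a6d and Ms4a7 were called higher and Ms4a4a, Ms4a4c and Ms4a8a lower. There the calls covered 73.2% of all tested genes, 36.7% higher and 36.4% lower. The members' median log2 change was 0.91 in TolDC and 0.38 in BMDC, beside -0.0017 and -0.00029 over all tested genes. The libraries did not overlap for 5 of 7 members in TolDC and 6 of 7 in BMDC, against 75.6% and 74.8% of all tested genes.

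The abundant members had the firmest estimates. Ms4a6d changed by 0.91 ± 0.038 on the log2 scale in TolDC+LPS over TolDC, which is 1.88-fold, and by 0.39 ± 0.038 in BMDC+LPS over BMDC. Ms4a7 changed by 0.82 ± 0.070 in TolDC and by 0.38 ± 0.11 in BMDC, where its libraries with and without LPS overlapped. Both were thus higher with LPS in both cell types.

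The paralogs Ms4a6c and Ms4a6b were also higher with LPS. The log2 change of Ms4a6c was 1.74 ± 0.46 in TolDC and 1.80 ± 0.35 in BMDC, and it was 1.52 and 1.68 without the libraries numbered 1. Ms4a6b changed by 2.3 ± 0.39 in BMDC, which is 4.92-fold. In TolDC its log2 change of 0.77 ± 0.37 was not called. It was called without TolDC+LPS replicate 1 (1.09), with the replicate number as a block (0.74) and without the libraries numbered 1 (0.85). DESeq2 called it too (0.78).

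Ms4a8a, Ms4a4a and Ms4a4c had lower levels with LPS in BMDC and higher fitted levels with LPS in TolDC. In BMDC their log2 changes were -0.93 ± 0.11, -0.83 ± 0.25 and -1.37 ± 0.29. In TolDC they were 1.38 ± 0.34, 2.28 ± 0.63 and 0.77 ± 0.60, the last not called. The counts behind the TolDC values were few. TolDC+LPS libraries summed to 51 counts of Ms4a8a, against 15 in TolDC, a ratio of 2.64 (95% exact interval 1.46 to 5.05). For Ms4a4a the sums were 27 counts in TolDC+LPS and 4 in TolDC, a ratio of 5.23 (1.82 to 20.6). Even with LPS, no TolDC+LPS library reached the lowest BMDC+LPS library for these 3 genes.

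The LPS response in TolDC minus that in BMDC was called higher for 5 of 7 members and lower for Ms4a6b, and was not called for Ms4a6c. Over all tested genes the difference was called for 44.4%, 20.4% higher and 24.0% lower. On the log2 scale it was 3.12 ± 0.67 for Ms4a4a, 2.31 ± 0.35 for Ms4a8a and 2.14 ± 0.66 for Ms4a4c. It was 0.52 ± 0.053 for Ms4a6d, 0.44 ± 0.13 for Ms4a7, -0.07 ± 0.64 for Ms4a6c and -1.53 ± 0.55 for Ms4a6b. The Ms4a4c call was lost without TolDC replicate 1 (1.81) or TolDC+LPS replicate 3 (1.60), and with limma-voom (2.00). That of Ms4a6b was lost without TolDC+LPS replicate 3, TolDC replicate 2 or 3, BMDC+LPS replicate 2 or 3 or any BMDC library, with values between -1.73 and -1.33. It was also lost without the filter on low counts (-1.50).

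Compared per length, as CPM per kilobase of merged exons, Ms4a6d made up most of the members' summed level in every group. Its share was 76.4% ± 0.19 in TolDC+LPS, 75.8% ± 0.37 in TolDC, 81.7% ± 2.0 in BMDC+LPS and 73.6% ± 1.2 in BMDC (SD, n = 3 libraries each). Its own level was 90.9 ± 3.1 CPM per kilobase in TolDC+LPS and 58.6 ± 0.67 in BMDC+LPS. Without LPS it was 48.3 ± 1.5 in TolDC and 44.6 ± 0.65 in BMDC. Larger relative changes between the cells were in the shares of Ms4a7, Ms4a8a, Ms4a4a and Ms4a4c. Ms4a7 held 21.4% ± 0.73 in TolDC+LPS and 22.6% ± 0.29 in TolDC, against 2.85% ± 0.27 in BMDC+LPS and 2.61% ± 0.44 in BMDC. Ms4a8a held 0.243% ± 0.057 and 0.172% ± 0.10 in TolDC+LPS and TolDC, against 5.44% ± 0.35 and 12.3% ± 1.3 in BMDC+LPS and BMDC. The Ms4a4c share was 0.240% ± 0.12 in TolDC, against 5.39% ± 1.5 in BMDC. The summed level was 119 ± 4.0 CPM per kilobase in TolDC+LPS, 63.7 ± 1.7 in TolDC, 71.8 ± 2.3 in BMDC+LPS and 60.6 ± 1.8 in BMDC.

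**Figure D3:**
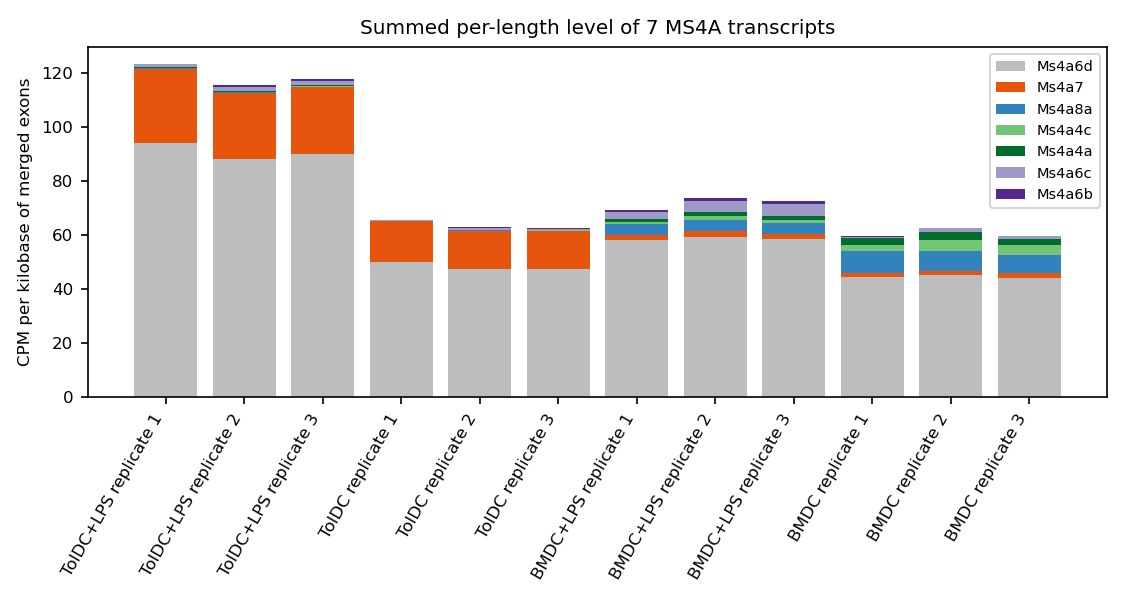
Summed per-length level of the 7 members in CPM per kilobase of merged exons (vertical axis) in each of the 12 libraries (horizontal axis), coloured by gene. Ms4a6d fills 72.3 to 84.0% of every bar, Ms4a7 most of the rest in the TolDC groups, and Ms4a8a, Ms4a4c and Ms4a4a more of it in BMDC.

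The paralogs are alike in sequence, which bears on how reads can be told apart. The coding sequences of Ms4a6b and Ms4a6c were 85.8% identical, those of Ms4a6b and Ms4a6d 81.2% and those of Ms4a4b and Ms4a4c 91.7%. Of the windows of 75 bases in Ms4a4c, 3.78% were shared with Ms4a4b. Ms4a6c shared 47.7% of its windows with BE692007, an annotated transcript on the opposite strand of the same locus that is not analysed here. The shares that follow leave out windows shared with BE692007 alone, since the counts used are those of 1 strand. On that basis 2.88% of the windows of Ms4a6c were shared, with Ms4a6b and Prdm11. The share was 0.632% for Ms4a6b, 0.408% for Ms4a6d and 0 for Ms4a4a, Ms4a7 and Ms4a8a. Counts of Ms4a4c and Ms4a6c are uncertain through these shared windows. Reads on the opposite strand amounted to at most 0.815% of those of any member.

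For each member, 3 genes followed its pattern most closely, by the root mean square difference of log2 CPM centred on each gene's mean over the 12 libraries. For Ms4a7 they were Tnfsf13b (0.160), which encodes the B cell survival factor BAFF, Gja5 (0.353), which encodes a connexin, and Kit (0.456), the stem cell factor receptor. Tnfsf13b averaged 24.7 ± 2.1, 15 ± 0.68, 2.03 ± 0.61 and 1.73 ± 0.33 CPM in TolDC+LPS, TolDC, BMDC+LPS and BMDC (SD, n = 3 each). Gja5 stood at 495 ± 33, 234 ± 13, 23.4 ± 1.3 and 18.1 ± 2.2 CPM in the same order. All 3 genes, like Ms4a7, were high in both TolDC groups.

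Fam3a (0.0507), Asns (0.0619), which encodes asparagine synthetase, and Atp6v0b (0.0659), a subunit of the proton pump of acidic vesicles, were nearest to Ms4a6d. Ms4a8a was nearest to Dclk1 (0.341), Tcaf2 (0.649) and Tspan7 (0.666), Ms4a4a to Slc28a3 (0.587), Tmcc3 (0.617) and Pou4f1 (0.643), and Ms4a4c to Pou4f1 (0.430), Ctsk (0.658) and Gfra2 (0.673). Ms4a6b was nearest to Trim30b (0.336), Enpp4 (0.355) and the interferon-inducible guanylate-binding protein gene Gbp4 (0.360). Ms4a6c was nearest to Stat4 (0.406), Isg20 (0.412), an interferon-stimulated exonuclease gene, and Lrp8 (0.424). With a prior count of 0.5 in place of 2, 1 of the 3 genes named for Ms4a4a was still among its nearest 3, and all 3 were for each of the other 6 members. The likeness was chosen from these same libraries and was not tested.

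Among the 16 other genes of the family, 6 had enough counts to be tested: Ms4a2, Ms4a3, Ms4a4b, Ms4a14, Tmem176a and Tmem176b. The list was drawn up by family membership, but with earlier results of these data known. Its adjusted p-values come from edgeR's quasi-likelihood test over all tested genes and describe these libraries only. In TolDC over BMDC, 1 rose, 2 fell and 3 were not called, beside 62.4% of all tested genes called. With LPS in both, 1 rose, 3 fell and 2 were not called, beside 67.9%. LPS over no LPS gave 2 rises and 2 falls in TolDC, beside 71.3% of all tested genes, and 2 rises and 1 fall in BMDC, beside 73.2%. With the replicate number as a block, 6 of 6 were called in TolDC over BMDC and 5 of 6 in BMDC+LPS over BMDC. The shares of all tested genes given above are from the fit without the block, so they are no background for these counts. The counts with the block are therefore not read as a result about the family. Of the other 10 genes, Ms4a1 had 82 counts over all 12 libraries, Ms4a4d 12, Ms4a20 4, Ms4a10 2, Ms4a15 and Ms4a19 1 each, and Ms4a5, Ms4a12, Ms4a13 and Ms4a18 had 0.

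**Figure D4:**
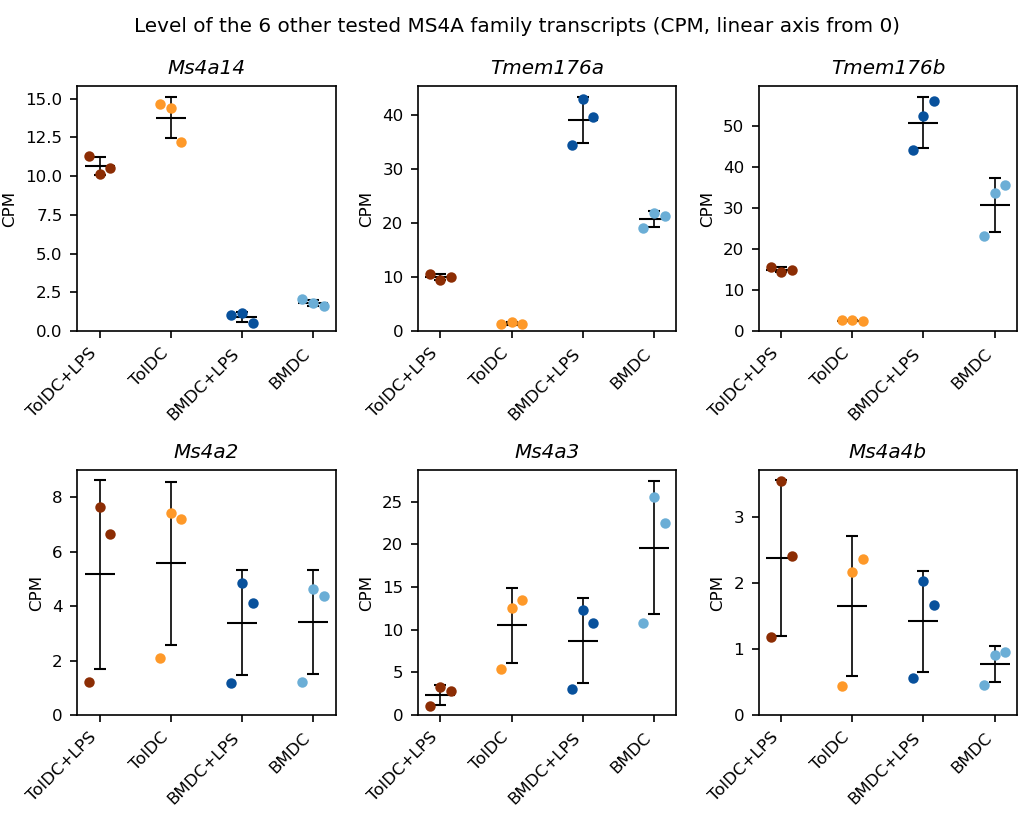
Level in CPM (vertical axis, linear from 0) of the 6 other tested family transcripts by group (horizontal axis), with points for the 3 libraries in replicate order and bars for the mean and SD. Ms4a14 is high in both TolDC groups, Tmem176a and Tmem176b are low in TolDC, and Ms4a2, Ms4a3 and Ms4a4b are lowest in replicate 1 of every group.

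Ms4a14, the gene beside Ms4a7, was high in the same groups. It lies 6.584 kilobases from Ms4a7 on the same strand. Its libraries had 11.3, 10.1 and 10.6 CPM in TolDC+LPS, 14.6, 14.4 and 12.2 CPM in TolDC, 1.06, 1.15 and 0.539 CPM in BMDC+LPS, and 2.05, 1.78 and 1.64 CPM in BMDC. TolDC exceeded BMDC by 2.91 ± 0.14 on the log2 scale (adjusted p = 1.43e-12, edgeR), and TolDC+LPS exceeded BMDC+LPS by 3.52 ± 0.16 (adjusted p = 6.49e-13). With LPS Ms4a14 fell, unlike Ms4a7, by 0.37 on the log2 scale in TolDC (adjusted p = 0.00554) and by 0.98 in BMDC (adjusted p = 0.000323). Its windows of 75 bases were shared with no other gene.

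Tmem176a and Tmem176b, cation channel genes of endosomes in dendritic cells, overlap on opposite strands of chromosome 6, apart from the cluster, and were at their lowest in TolDC. Tmem176b had 15.6, 14.4 and 15 CPM in TolDC+LPS, 2.62, 2.69 and 2.40 CPM in TolDC, 44.0, 52.4 and 56.1 CPM in BMDC+LPS, and 23.2, 33.6 and 35.5 CPM in BMDC. Without LPS the log2 change of TolDC over BMDC was -3.58 ± 0.20 for Tmem176b (adjusted p = 7.47e-08, edgeR) and -3.86 ± 0.12 for Tmem176a (adjusted p = 3.67e-15). On the log2 scale Tmem176a rose with LPS by 2.81 ± 0.13 in TolDC and by 0.91 ± 0.080 in BMDC, and Tmem176b by 2.55 ± 0.21 and 0.72 ± 0.14. The TolDC+LPS levels stayed below those of BMDC, as they did for Ms4a8a, Ms4a4a and Ms4a4c.

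Ms4a3, a gene of granulocyte and monocyte progenitors, fell by 2.13 ± 0.67 on the log2 scale in TolDC+LPS over TolDC (adjusted p = 0.0199, edgeR) and was lower in TolDC+LPS than in BMDC+LPS, at -1.82 ± 0.70 (adjusted p = 0.0457). The first call was lost without TolDC+LPS replicate 1 or TolDC replicate 2 or 3, with values between -1.98 and -1.79. The second was lost on leaving out any of 9 libraries: every TolDC+LPS library, replicates 2 and 3 of TolDC, of BMDC+LPS and of BMDC, with values between -2.06 and -1.47. It was also lost without the filter on low counts (-1.79), with limma-voom (-1.63) and with the compared groups alone (-1.84). Ms4a3 was lowest in replicate 1 in all 4 groups, as were Ms4a2 and the T cell gene Ms4a4b. In BMDC, for example, Ms4a3 had 10.8 CPM in replicate 1, against 25.5 and 22.5 CPM in replicates 2 and 3. The markers of granulocytes, of mast cells and of T and NK cells were low in the same libraries, and their part in the values of these genes was not tested. In BMDC, for instance, the T and NK cell markers summed to 2.36 CPM in replicate 1, against 6.68 and 6.63 CPM in replicates 2 and 3. No call was made for Ms4a2 or Ms4a4b, nor for Ms4a3 in TolDC over BMDC, where the log2 changes were called both with the replicate number as a block, at 0.71, 1.10 and -0.91, and without the libraries numbered 1, at 0.69, 1.29 and -0.89. In TolDC+LPS over BMDC+LPS, Ms4a2 and Ms4a4b were called with the block (0.59 and 0.74) and without those libraries (0.66 and 0.65). In BMDC+LPS over BMDC, Ms4a3 and Ms4a4b were called with the block (-1.22 and 0.87) and without those libraries (-1.07 and 0.99). Ms4a4b was called in TolDC+LPS over TolDC with the block (0.50), and the difference of the LPS responses of Ms4a3 was called with the block (-0.93) and without those libraries (-1.05). Ms4a3 was also called in BMDC+LPS over BMDC with limma-voom (-1.42) and without BMDC replicate 1 (-1.51). Leaving out TolDC replicate 1 gave a call for Ms4a4b in TolDC over BMDC (1.56).

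Along the cluster, tested genes next in order often differed in direction. Of all tested genes, 32.0% were called higher in TolDC than in BMDC and 30.4% lower. Ms4a14 and Ms4a7 were higher in TolDC than in BMDC, while Ms4a8a on one side and Ms4a4a and Ms4a4c on the other were lower. Genes with too few counts to be tested, such as Ms4a1, lie between Ms4a8a and Ms4a14. AW112010, a long noncoding RNA gene known to be induced by LPS in mouse macrophages, lies 11.662 kilobases from Ms4a8a. It averaged 247 ± 31 CPM in TolDC+LPS, 45.8 ± 3.9 in TolDC, 323 ± 44 in BMDC+LPS and 68.5 ± 8.1 in BMDC (SD, n = 3 each). It rose with LPS by 2.43 ± 0.15 on the log2 scale in TolDC (adjusted p = 2.93e-07, edgeR) and by 2.24 ± 0.14 in BMDC (adjusted p = 4.26e-07). Ms4a8a, its neighbour, was lower with LPS in BMDC.

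**Figure D5:**
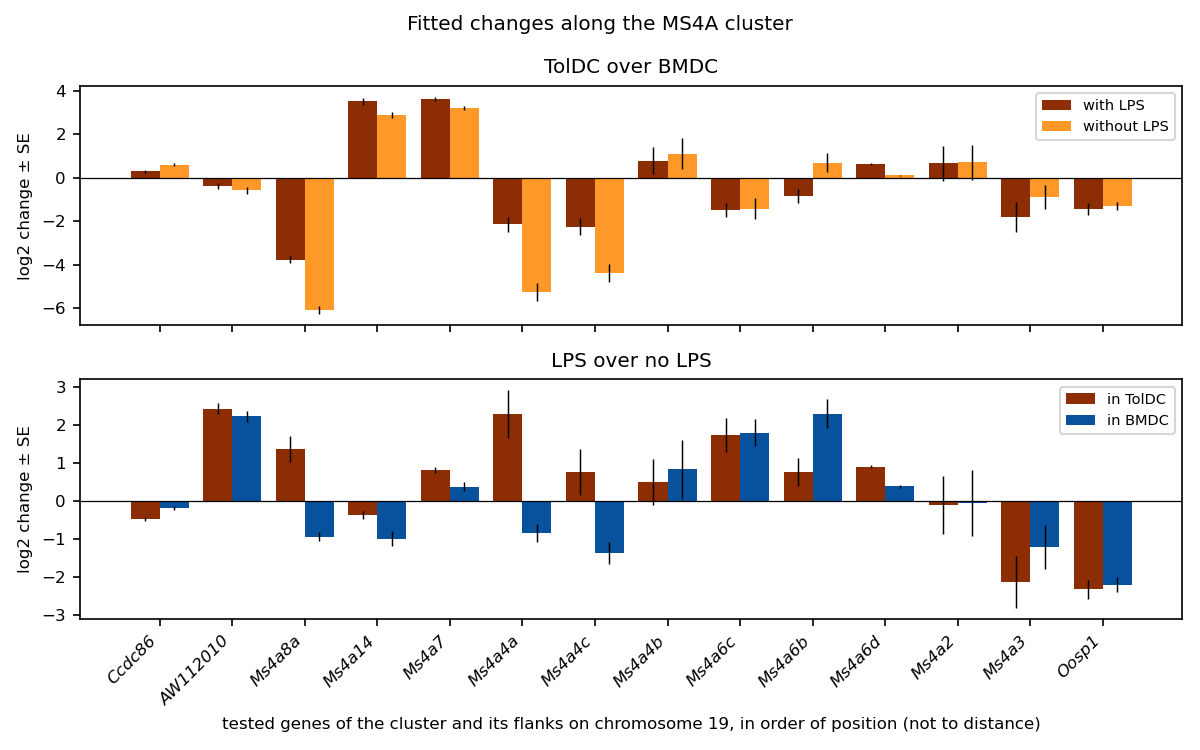
Fitted log2 changes with SE (vertical axes) of the tested genes of the MS4A cluster and its flanks, in order of position on chromosome 19 but not to distance (horizontal axis). The upper panel shows TolDC over BMDC with and without LPS, and the lower panel LPS over no LPS in TolDC and in BMDC. Ms4a14 and Ms4a7 stand above 0 in the upper panel between Ms4a8a and Ms4a4a, which stand below it.

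Genes known as partners or downstream genes of MS4A proteins were measured alongside. Of 13 such genes in the files, 12 were tested, and Vsig4 had too few counts. Clec7a was also listed, but was not matched to a gene of the counts, so it was not measured. TolDC over BMDC gave 5 rises, 4 falls and 3 genes not called, beside 62.4% of all tested genes called, and TolDC+LPS over BMDC+LPS gave 7, 2 and 3, beside 67.9%. LPS gave 6 rises and 5 falls in TolDC, beside 71.3% of all tested genes, and 6 rises and 6 falls in BMDC, beside 73.2%. The median log2 changes of the list were -0.01, 0.24, 0.26 and 0.06 in these comparisons, beside 0.01, 0.02, -0.0017 and -0.00029 over all tested genes.

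Kit, whose trafficking in human mast cells is known to depend on MS4A4A, was also among the genes nearest to Ms4a7 in these same libraries. It averaged 23.7 ± 0.87 CPM in TolDC+LPS, 22.3 ± 1.1 in TolDC, 4.38 ± 1.1 in BMDC+LPS and 1.81 ± 0.12 in BMDC. The change was 3.63 ± 0.13 on the log2 scale in TolDC over BMDC (adjusted p = 6.6e-14, edgeR). Trem2, the lipid receptor of macrophages and microglia, stood at 237 ± 18, 361 ± 6.9, 44.2 ± 3.5 and 217 ± 8.9 CPM in the same order. It fell with LPS by 0.61 on the log2 scale in TolDC and fell by 2.29 in BMDC, and the LPS response in TolDC minus that in BMDC was 1.69 ± 0.081 (adjusted p = 4.2e-11, edgeR).

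Of the genes named with Ms4a6d in the restraint of the inflammasome, Tnfaip3, Stat3 and Jak2 were higher with LPS in both cell types. Of all tested genes, 71.3% were called with LPS in TolDC and 73.2% in BMDC. Tnfaip3 rose by 1.87 ± 0.041 on the log2 scale in TolDC and 2.28 ± 0.043 in BMDC. Stat3 rose by 0.71 ± 0.037 and 1.22 ± 0.038, and Jak2 by 0.44 ± 0.040 and 0.26 ± 0.040. Nlrp3 averaged 135 ± 8.9 CPM in TolDC+LPS, 99.8 ± 1.3 in TolDC, 179 ± 1.6 in BMDC+LPS and 204 ± 14 in BMDC. Its mean was higher with LPS in TolDC and lower with LPS in BMDC. Without LPS, Nlrp3 was 1.03 ± 0.050 lower on the log2 scale in TolDC than in BMDC (adjusted p = 2.2e-12, edgeR). Syk, a kinase below several myeloid receptors, rose with LPS by 1.25 ± 0.042 in TolDC and 0.80 ± 0.042 in BMDC, and Fcer1g, an adaptor chain that assembles with Ms4a2 in the IgE receptor, by 1.07 ± 0.051 and 0.62 ± 0.051.

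Tetraspanins, another family of proteins that cross the membrane 4 times, were listed for comparison, and all 14 were tested. TolDC over BMDC gave 4 rises and 7 falls, TolDC+LPS over BMDC+LPS 5 and 6, and LPS 8 rises and 5 falls in TolDC and 8 and 6 in BMDC. Of all tested genes, 62.4%, 67.9%, 71.3% and 73.2% were called in these comparisons. The largest change between TolDC and BMDC among those with at least 5 CPM was that of Cd37, a tetraspanin of blood cells, at 1.11 ± 0.14 on the log2 scale (adjusted p = 0.00011, edgeR). With LPS in both, it was that of Tspan33 at -1.84 ± 0.15 (adjusted p = 4.9e-09).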

How the data were processed

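RNA was measured in 12 libraries by mRNA sequencing with a strand-marking kit, per the labels' protocols. The deposited counts are whole reads per Ensembl gene, 1 table a library, and STAR, cutadapt, edgeR and limma with builds mm10 and GRCm38 are named in the submitters' processing notes. Of the columns the authors deposited, the counts of the strand that held nearly all reads were used. Multi-mapping reads were 9.34 to 9.85% and were not assigned to genes. Gene names, positions and exon lengths came from GENCODE M21, which matched 31011 of 31054 identifiers.

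Genes were filtered with filterByExpr over the 4 groups and fitted with edgeR 4.0.16 (R 4.3.3) by the robust quasi-likelihood method, with TMM factors (0.945 to 1.04) and 1 mean per group over all 12 libraries. The Benjamini-Hochberg adjustment ran over all 13141 genes in each comparison, and the procedure was tested on simulated data. The simulation covered TolDC over BMDC, with changes planted in genes above 5 CPM and no effect of the replicate number. It therefore does not cover changes in genes of lower level or the shift of the libraries numbered 1. Log2 CPM for the likeness of patterns used a prior count of 2 and genes of at least 5 CPM on average. Ratios of summed counts have exact 95% binomial intervals, which cover counting error only. Same-numbered libraries deviated together in each comparison of a pair of groups, with correlations of 0.131 to 0.466, so the fit with the replicate number as a block is given beside results whose call it changed. No label says what the number stands for. No replicate pair agreed within sampling noise (chi-square per degree of freedom 1.35 to 11.6).

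The members and all gene lists were chosen with earlier results of these data known. The adjusted p-values printed for listed genes are therefore a description of these libraries too. Named in the text are all members, every other MS4A family gene and, of the partner and tetraspanin lists, genes from among the 4 largest called changes per comparison whose higher group reached 5 CPM. They also include Jak2, the 3 genes of most similar pattern per member and genes next to the members on chromosome 19. Alternatives were the unstranded counts, DESeq2's size factors, no filter, DESeq2 1.42.0, limma-voom (limma 3.58.1), a fit of the compared groups alone, the replicate number as a block, each library left out in turn and the libraries numbered 1 left out together.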

Additional observations from a re-analysis of the deposited data

Results flagged for a closer look

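The direction of the LPS response of Ms4a4a differed between the cells: every TolDC+LPS library was above every TolDC library, while every BMDC+LPS library was below every BMDC library, and the fitted difference of the responses was 3.12 on the log2 scale. Ms4a8a showed the same opposition, with a difference of 2.31. Both differences were called in the fit over all genes, which is a description only because the genes were chosen with these counts known. They were not tested in other libraries. The TolDC side of Ms4a4a rests on 27 counts in TolDC+LPS and 4 in TolDC, and Ms4a4a passed the filter only with the BMDC groups included.

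Among the other tested genes of the family, the LPS response in TolDC minus that in BMDC passed edgeR's quasi-likelihood test for 3. It was 1.90 on the log2 scale for Tmem176a (adjusted p = 1.76e-08) and 1.82 for Tmem176b (adjusted p = 0.000262), both higher with LPS in all 3 libraries of TolDC+LPS. For Ms4a14 it was 0.62 (adjusted p = 0.041), a call lost on leaving out any of 6 libraries: TolDC+LPS replicate 1 or 3, TolDC replicate 3, BMDC+LPS replicate 3 or BMDC replicate 1 or 2, with values between 0.37 and 0.64. It was also lost without the libraries numbered 1 (0.67), with DESeq2 and with limma-voom. Over all tested genes the difference was called for 44.4%.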

How the results depend on the processing

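The fitted changes of the 7 members kept their direction under every alternative that gave a value, except the difference of the LPS responses of Ms4a6c, which was not called and ran from -0.51 to 0.30 with a library left out. The fit of the compared groups alone gave no value for the differences of the responses, nor for Ms4a4a in TolDC+LPS over TolDC. There Ms4a4a did not pass the filter on low counts. Across all alternatives, 4 to 6 members were called in TolDC+LPS over TolDC and 4 to 7 in TolDC over BMDC. The number was 6 to 7 in TolDC+LPS over BMDC+LPS and 4 to 6 for the difference of the LPS responses. In BMDC+LPS over BMDC it was 7 throughout. With 1 library left out, it was 5 to 6 in TolDC+LPS over TolDC and 4 to 6 in TolDC over BMDC. The 7 calls in TolDC over BMDC came from other alternatives, for which no counts over all genes are given here. Over all genes, leaving out 1 library gave 8862 to 9575 calls in TolDC+LPS over TolDC and 7542 to 8453 in TolDC over BMDC. It gave 8368 to 9106 in TolDC+LPS over BMDC+LPS, 9221 to 9709 in BMDC+LPS over BMDC and 5244 to 5782 for the difference. The number of other family genes called, 3 in both comparisons, was 5 in BMDC+LPS over BMDC and 6 in TolDC over BMDC, both with the replicate number as a block and without the libraries numbered 1. With each library left out in turn, it was 3 to 4 in both. For the block and for the fit without the libraries numbered 1, no counts over all genes are given here.

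Over all 4 groups, same-numbered libraries deviated together with correlations of 0.091 to 0.466 in 18 pairs. The 1 pair not above 0.1 joined TolDC+LPS and BMDC, which were not compared directly, and 10 of 12 libraries correlated best with their own number. With the replicate block, Ms4a6b, Ms4a2, Ms4a3 and Ms4a4b gained calls, and no other call on an MS4A family gene changed.

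Changes near 0 that were not called turned sign when a library was left out. For Ms4a2 they ran from -0.49 to 0.36 in TolDC+LPS over TolDC, from -0.47 to 0.40 in BMDC+LPS over BMDC and from -0.50 to 0.41 for the difference of the responses. For Ms4a4b that difference ran from -0.77 to 0.036, and was 0.022 with limma-voom. The cause was not tested. Depth limits Ms4a4a, Ms4a4c and Ms4a8a in TolDC, with 4, 21 and 15 counts over 3 libraries.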
